A study of Mus musculus with 3 samples.

Results

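The cells described here were tumour-infiltrating T lymphocytes that carried transcripts of Tmem176a, Tmem176b and Il7r and lacked those of Foxp3 and, beyond 1 UMI (unique molecular identifier, 1 captured molecule), of Cd8a and Cd8b1. They were chosen on RNA alone: at least 1 UMI of Cd3e, 0 of Foxp3, 0 of Lyz2, at most 1 of Cd8a plus Cd8b1, at least 3 of Tmem176a plus Tmem176b and at least 1 of Il7r. The rule took 209 of 14113 Cd3e-positive cells, 107 from MC38-Ova tumours and 102 from B16-Ova tumours. Those 8 genes are therefore described and not tested. C57BL/6 mice carried subcutaneous MC38-Ova tumours, from a colon carcinoma line, or B16-Ova tumours, from a melanoma line, both named for ovalbumin, and tumours were taken on day 14. Sorted TCRβ+ CD3+ CD90.2+ CD11b- cells were tagged, hashtag 2 marking MC38-Ova cells and hashtag 1 marking B16-Ova cells, and both pools entered 1 droplet capture for 5′ RNA sequencing with oligonucleotide tags (SUGAR-seq). How many mice were pooled is not stated, and other alleles or treatments are not named. With 1 pool per tumour there is no replicate and no test, and every interval below is a 95% interval that covers counting error only.

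Tmem176a and Tmem176b encode tetraspan membrane proteins related to the CD20 family that act as cation channels of intracellular vesicles, and in mice both are expressed in lymphocytes of the type 17 programme, in which IL-23 and IL-1 receptors lead to the cytokines IL-17A, IL-17F and IL-22. PLZF, encoded by Zbtb16, directs innate-like T cells such as invariant NKT, mucosal-associated invariant T (MAIT) and some γδ T cells, which sit in tissues and respond to cytokines and conserved antigens. IL-7, received through Il7r and the common γ chain, supports the survival of such cells and of memory T cells.

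Each surface value rests on an antibody whose oligonucleotide is read beside the RNA, and these tag sequences, as listed by the submitters, define the 5 counted features. The Biotin tag reports the lectin L-Pha, which carries biotin and binds complex N-glycans with the β1,6 branch that the enzyme Mgat5 adds. The sequences are given 5′ to 3′.
hash#2, which marks MC38-Ova cells: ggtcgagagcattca
hash#1, which marks B16-Ova cells: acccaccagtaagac
Biotin, which reports bound L-Pha: cggtatatcaacaga
Tim3, on the inhibitory receptor encoded by Havcr2: attggcactcagatg
PD1, on the inhibitory receptor encoded by Pdcd1: gaaagtcaaagcact

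Members were chosen on Tmem176a and Tmem176b, so the region between these genes is shown. In the GENCODE annotation Tmem176a lies at chr6:48840919-48847071 on the plus strand and Tmem176b at chr6:48833818-48841496 on the minus strand. By these bounds both share 578 bases and point away from each other. The window runs chr6:48841233-48841532 on the plus strand (GRCm38.p6, RefSeq). Capitals mark the first 50 bases after a Tmem176b start, which are read here on the opposite strand, and then the first 50 bases after a Tmem176a start. These RefSeq starts lie 109 bases apart, and transcripts from them would share no bases, unlike the GENCODE bounds. How the counting treated strand is not given in the sources used here, so reads in the bases shared by the GENCODE bounds may not be told apart. This is why the rule and the text take both genes together.
Tmem176a: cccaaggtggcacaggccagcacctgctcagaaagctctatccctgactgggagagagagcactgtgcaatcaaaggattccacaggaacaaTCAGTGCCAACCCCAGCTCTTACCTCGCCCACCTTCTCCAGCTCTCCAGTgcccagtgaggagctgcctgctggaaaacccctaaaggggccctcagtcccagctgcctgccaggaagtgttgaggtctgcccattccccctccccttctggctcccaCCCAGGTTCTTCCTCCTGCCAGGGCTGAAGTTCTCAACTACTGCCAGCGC

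Il23r stood far above its level in other T cells but was too low in mean level to be among the genes tested. Its start was picked because it holds AGGTCA, letters that nuclear receptors such as RORα, encoded by Rora, bind. The window runs chr6:67491806-67492105 on the minus strand (GRCm38.p6, RefSeq), and capitals mark AGGTCA or TAGGTCA on either strand.
Il23r: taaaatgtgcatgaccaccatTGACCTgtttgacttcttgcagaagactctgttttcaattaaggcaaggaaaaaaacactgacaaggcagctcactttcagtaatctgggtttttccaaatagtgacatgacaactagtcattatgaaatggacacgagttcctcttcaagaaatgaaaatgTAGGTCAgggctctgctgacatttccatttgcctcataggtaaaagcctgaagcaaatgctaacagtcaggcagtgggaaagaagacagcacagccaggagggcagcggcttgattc
The TAGGTCA match starts 67 bases before the gene's start. AGGTCA, searched on both strands, occurred in 16.3% of 32851 RefSeq promoter windows of this length and TAGGTCA, which contains it, in 2.61%. Neither set of letters was in the 2 windows of Tmem176a or the 3 of Tmem176b, and AGGTCA alone was in the windows of Il17a and Il17f. Of the 20 genes furthest above other T cells, 14 had a window and 1, Actn2, held AGGTCA (7.14%). Of the 10 genes furthest below, 9 had a window and 2, Ccl3 and Gzmc, held it (22.2%). Counted by gene in the same way, 18.1% of 27025 genes held it. These matches are descriptions of letters.

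Of the 209 barcodes, 6, 3 in each tumour, stood apart before any comparison. They held 10 or more summed UMIs of melanoma, fibroblast and macrophage markers (4, 4 and 9 genes), against at most 4 in the other 104 MC38-Ova cells and at most 6 in the other 99 B16-Ova cells. Melanoma transcripts filled 1 of the MC38-Ova barcodes with 776 UMIs, although its hashtag named the colon carcinoma, and 2 of the B16-Ova barcodes with 1332 and 1067 UMIs. The other three were rich in fibroblast transcripts, with 390 and 588 UMIs in MC38-Ova and 116 UMIs in B16-Ova. Their RNA ran from 15569 to 71244 UMIs, against 1643 to 18221 UMIs in the other MC38-Ova cells and 2753 to 14694 in the other B16-Ova cells. Together these 6 mixed barcodes held 15.4% of the MC38-Ova and 16.9% of the B16-Ova UMIs of the 209. Values below are for the other 203 cells, set against 13739 Cd3e-positive cells from which 165 such barcodes were likewise left out, and values with all 209 stand beside them where they differ. The threshold of 10 was chosen after seeing the data.

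The cells made up 1.36% of Cd3e-positive cells in MC38-Ova tumours (107 of 7870, exact interval 1.12 to 1.64%) and 1.63% in B16-Ova tumours (102 of 6243, 1.33 to 1.98%). Without the mixed barcodes the shares were 1.34% and 1.60%. The intervals of the tumours overlapped. Fewer cells of a type and less RNA per cell cannot be told apart in such a share, since the rule counts UMIs. The cells carried a median of 6 Tmem176a plus Tmem176b UMIs in each tumour. By the rule's own genes, Tmem176a stood at 524 CPM (UMIs scaled to a total of 1000000) in MC38-Ova members against 12.4 CPM in other cells and Tmem176b at 857 CPM against 16.9 CPM. In B16-Ova members Tmem176a stood at 600.2 CPM against 10.4 CPM and Tmem176b at 746 CPM against 14.9 CPM. Il7r stood at 1006 CPM in MC38-Ova and 945 CPM in B16-Ova members, against 268 and 211 CPM in other cells.

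The label given to these cells is type 17 innate-like T cells, with Tmem176a, Tmem176b, Il17a, Zbtb16 and Ramp1 as markers. The markers that the rule did not use were unevenly present. Ramp1, the partner protein that turns the calcitonin receptor-like receptor into the receptor of the neuropeptide CGRP, was seen in 57.7% of MC38-Ova and 63.6% of B16-Ova members. Zbtb16 was seen in 25% and 23.2%, and Il17a in 3.85% (4 of 104) and 4.04% (4 of 99). Any of the 7 type 17 genes Il23r, Il1r1, Il17re, Il17a, Il17f, Il22 and Ccr6 was seen in 46.2% of MC38-Ova members (48 of 104, exact interval 36.3 to 56.2%) and 43.4% of B16-Ova members (43 of 99, 33.5 to 53.8%). In other Cd3e-positive cells the same share was 3.84% in MC38-Ova and 4.34% in B16-Ova. When each cell was thinned to 2000 UMIs it was 25.2% of MC38-Ova members against 1.28% of others, and 19.2% of B16-Ova members against 1.64% of others. The name therefore holds for a part of the cells at this depth, and the cells are called here by their rule, Tmem176+ Il7r+ T cells. At a median depth of 5053.5 RNA UMIs in MC38-Ova and 5333 in B16-Ova members, a transcript that was not seen in a cell need not be absent.

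Gene levels were compared as CPM of the summed UMIs of each tumour, over 5404 genes with a mean of at least 20 CPM. Of these, 73 were 2-fold or more higher in Tmem176+ Il7r+ T cells in both tumours, which is 1.35% of the genes, and 72 were 2-fold or more lower, 1.33%. With all 209 barcodes the counts were 135 of 5536 (2.44%) higher and 71 (1.28%) lower, and 57 of the higher and 58 of the lower genes were called in both sets. Of the 20 genes with the highest ratios among all 209, 14 had over 50% of their UMIs in the 6 mixed barcodes, among them the melanoma genes Dct, Mlana, Tyrp1 and Pmel. For the genes named below, leaving those barcodes out moved the log2 ratio by -0.42 to 1.02 (median 0.20) in MC38-Ova and by -0.43 to 0.58 (median 0.24) in B16-Ova. The cells were chosen by RNA, so these counts describe them and support nothing.

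**Figure D1:**
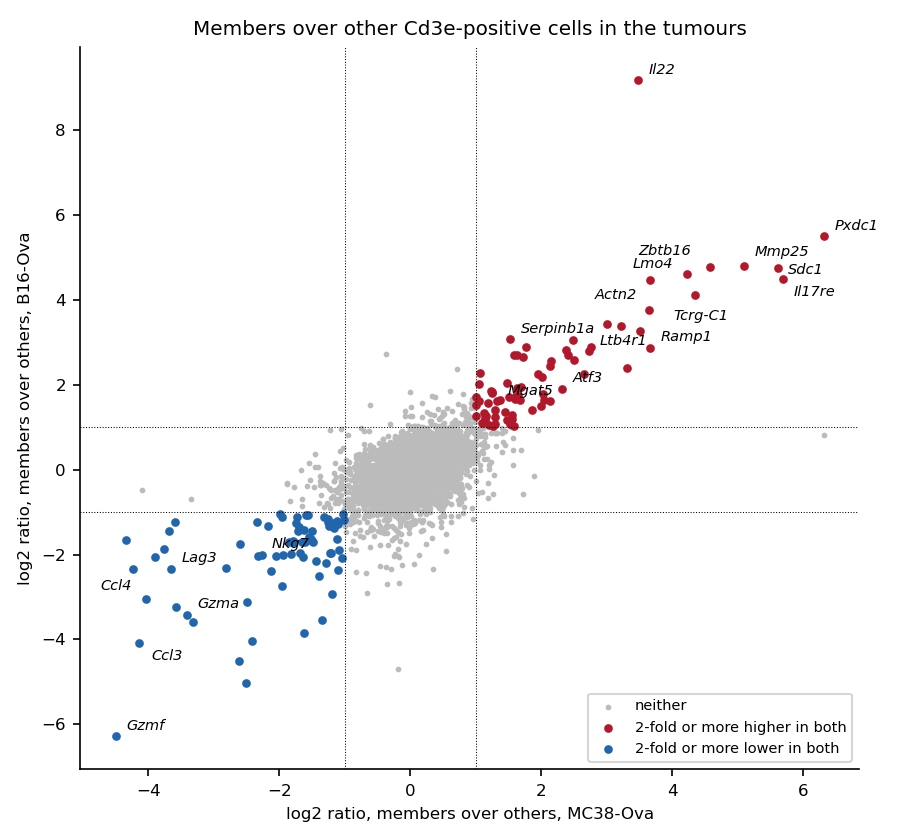
Each point is 1 of the tested genes, with the log2 ratio of summed CPM of Tmem176+ Il7r+ T cells (members) over other Cd3e-positive cells in MC38-Ova on the x axis and in B16-Ova on the y axis, mixed barcodes left out. Red points are the 73 genes 2-fold or more higher and blue points the 72 genes 2-fold or more lower in both tumours; Pxdc1, Sdc1, Mmp25 and Zbtb16 lie far up on the diagonal, Gzmf and Ccl3 far down, and Il22 rests on 1 UMI in MC38-Ova. Genes with 0 UMIs in members are drawn at the bound set by 3 UMIs.

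Among the transcription factors, Zbtb16 (chr9:48654297-48836222, minus strand) stood far above its level in other cells. Zbtb16 stood at 78.4 CPM in MC38-Ova members against 3.30 CPM in other cells (log2 ratio 4.57, interval 4.10 to 5.02). In B16-Ova it stood at 66.3 CPM against 2.44 CPM (4.76, 4.22 to 5.28). It was carried by many cells rather than one, with a UMI in 26 MC38-Ova and 23 B16-Ova members. Rora, which encodes RORα, a nuclear receptor that serves the type 17 programme, was widely present in other T cells and 2-fold higher in members, with log2 ratios of 1.16 and 1.26. Maf, Batf, Stat3 and Ahr, which also serve the type 17 programme, did not reach 2-fold in both tumours, and Batf was lower in members (-0.82 and -1.20).

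Receptors of the type 17 programme followed. Il23r, the IL-23 receptor chain, was at 40.8 CPM in MC38-Ova members against 0.70 CPM (log2 ratio 5.86, 5.10 to 6.59) and at 33.2 CPM in B16-Ova members against 0.60 CPM (5.78, 4.91 to 6.62). Il1r1, the IL-1 receptor, was at 22.0 against 0.36 CPM in MC38-Ova (5.93) and 21.6 against 0.55 CPM in B16-Ova (5.29). Il17re, a receptor chain for IL-17C, was at 51.8 against 1.00 CPM in MC38-Ova (5.69) and 26.5 against 1.19 CPM in B16-Ova (4.48). Il17ra, the chain shared by IL-17 family receptors, did not differ beyond counting error (0.26, -0.34 to 0.79 in MC38-Ova and -0.15, -0.96 to 0.55 in B16-Ova). Ccr6, the receptor of the chemokine Ccl20, was seen in 7.69% of MC38-Ova and 19.2% of B16-Ova members, with log2 ratios of 2.34 and 2.94. Il23r, Il1r1 and Ccr6 were under the mean level tested, so they are not among the called genes.

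The cytokines themselves were rare. Il17a gave 10 UMIs in 4 MC38-Ova members and 5 UMIs in 4 B16-Ova members, 15.7 CPM against 2.09 CPM in other MC38-Ova cells (2.91, 1.81 to 3.83) and 8.29 CPM against 3.11 CPM in other B16-Ova cells (1.41, -0.23 to 2.66). The B16-Ova ratio of Il17a thus did not differ from 1 beyond counting error. The shares of members with an Il17a UMI, 3.85% in MC38-Ova and 4.04% in B16-Ova at medians of 5053.5 and 5333 RNA UMIs, were above those in CD8 cells, which should lack the gene, 0.41% and 0.30% at medians of 7479 and 7736 RNA UMIs. Il17f gave 5 UMIs in 3 MC38-Ova members and 1 UMI in B16-Ova. Il22 gave 1 UMI in MC38-Ova and 102 UMIs in 4 B16-Ova members, 74.5% of them in 1 cell, so its call as a higher gene rests on few cells. Il21 had 0 UMIs in members of both tumours.

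Across the type 17 list of 24 genes 13 were tested, 7 were 2-fold higher in members in both tumours (Rora, Il17re, Il22, Aqp3, Sdc1, Ltb4r1 and Serpinb1a) and 0 were lower. The median log2 ratio of the tested genes was 1.16 in MC38-Ova and 1.26 in B16-Ova, against 0.03 and -0.05 over all genes tested. Il17re, Il22, Aqp3 and Sdc1 were under 20 CPM in the other cells of both tumours and passed the 20 CPM mean through the members, so neither the count nor the median supports a direction of the list. With all 209 barcodes 6 of 12 were higher. Sdc1, syndecan-1, was at 62.8 CPM against 1.28 CPM in MC38-Ova (5.61) and 28.2 against 1.05 CPM in B16-Ova (4.75). Aqp3, a channel for water and glycerol, had log2 ratios of 2.77 and 2.90, and Serpinb1a, an inhibitor of serine proteases, 1.53 and 3.07. Blk, a Src-family kinase of B cells that is also known in mouse IL-17-producing γδ T cells, was under the mean level tested, with 14.1 CPM against 0.20 CPM in MC38-Ova (6.12) and 14.9 against 0.29 CPM in B16-Ova (5.67).

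**Figure D2:**
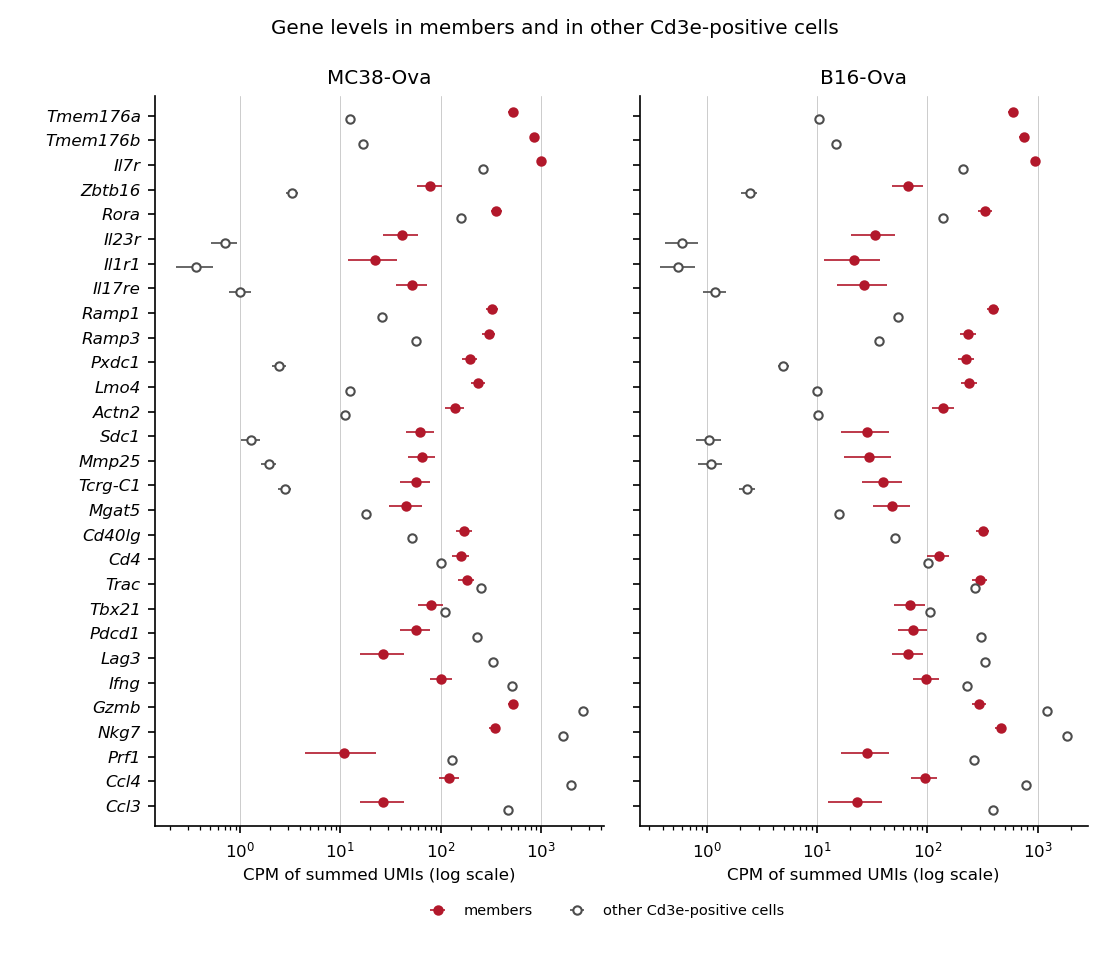
Levels of the named genes as CPM of summed UMIs on a log axis, for Tmem176+ Il7r+ T cells (filled red, members) and other Cd3e-positive cells (open grey), MC38-Ova left and B16-Ova right, with 95% counting intervals, mixed barcodes left out. Genes from Tmem176a to Mgat5 and Cd40lg stand to the right in members, Cd4 and Trac lie close together, and genes from Pdcd1 down to Ccl3 stand to the left in members.

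Named genes also included receptors of neuropeptides and lipid mediators, put together here after their values were seen. Ramp1 (chr1:91179822-91225196, plus strand) was at 328 CPM in MC38-Ova members against 25.9 CPM (3.66, 3.45 to 3.87) and at 393 CPM in B16-Ova members against 53.8 CPM (2.87, 2.67 to 3.06). Other cells of the tumours differed in Ramp1 too, with 14.5% of other MC38-Ova and 23.3% of other B16-Ova cells carrying a UMI, and 41.5% of Foxp3-positive B16-Ova cells. Ramp3, which pairs with the same receptor for adrenomedullin, was at 303 against 57.0 CPM in MC38-Ova (2.41) and 232 against 36.0 CPM in B16-Ova (2.69), but it did not reach 2-fold in both tumours against cells that met the rest of the rule with 0 Tmem176 UMIs (1.16 and 0.97). Ltb4r1, the high-affinity receptor of leukotriene B4, was at 246 against 37.2 CPM in MC38-Ova (2.73) and 82.9 against 12.1 CPM in B16-Ova (2.78). Cysltr1, a receptor of cysteinyl leukotrienes, was at 47.1 against 3.70 CPM in MC38-Ova (3.67) and 28.2 against 1.27 CPM in B16-Ova (4.47). With under 20 CPM in the other cells of both tumours, Cysltr1 passed the mean through the members and could not have been called lower.

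The gene ranked first by the lower of its ratios in the tumours was Pxdc1 (chr13:34627834-34653486, minus strand), at 196 CPM against 2.45 CPM in MC38-Ova (6.32, 5.97 to 6.67) and 224 CPM against 4.96 CPM in B16-Ova (5.50, 5.19 to 5.80). It was seen in 41 MC38-Ova members and 37 B16-Ova members, and no single cell held over 10% of its UMIs. Lmo4, a LIM-only transcriptional cofactor, was at 237 against 12.6 CPM in MC38-Ova (4.23) and 240.4 against 9.94 CPM in B16-Ova (4.60). Actn2, an α-actinin that crosslinks actin, was at 138 against 11.02 CPM in MC38-Ova (3.65) and 139 against 10.2 CPM in B16-Ova (3.77). Mmp25, a membrane-anchored matrix metalloproteinase, was at 65.9 against 1.92 CPM in MC38-Ova (5.10) and 29.8 against 1.08 CPM in B16-Ova (4.78). Pxdc1, Lmo4, Actn2 and Mmp25 were under 20 CPM in the other cells of both tumours, as were Krt83, Bik, Espn and Qpct, named next. These genes passed the 20 CPM mean through the members and could not have been called lower, so their rank supports no direction. The rest of the 20 named genes were Krt83, a keratin (3.51 and 3.27), Ckb, a creatine kinase (3.21 and 3.38), Bik, a BH3-only promoter of apoptosis (3.01 and 3.43), Espn, an actin-bundling protein (3.32 and 2.39), Qpct, a glutaminyl cyclase (2.50 and 2.59), and the transcription factor Klf4 (2.49 and 3.05), with the MC38-Ova log2 ratio first in each pair.

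Among innate-like genes, 20 of 25 listed were tested, 4 were 2-fold higher (Zbtb16, Ramp1, Ramp3 and Il18r1, the IL-18 receptor) and 3 were 2-fold lower (Xcl1, Plac8 and Klrd1). The list median was -0.13 in MC38-Ova and -0.02 in B16-Ova, near that of all genes tested. Zbtb16 was under 20 CPM in the other cells of both tumours and passed the mean through the members. Il18r1 was at 226 CPM in MC38-Ova members against 99.2 CPM (1.19) and at 197 CPM in B16-Ova members against 66.2 CPM (1.58). Klrb1c, which encodes the receptor NK1.1 of NKT and NK cells, did not reach 2-fold in both tumours (0.45, -0.23 to 1.05, and 1.21, 0.49 to 1.85). Klrd1, a chain of NK cell receptors, was at 155 against 502 CPM in MC38-Ova (-1.69) and 141 against 357 CPM in B16-Ova (-1.34).

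Of the cytotoxic and type 1 genes 15 were tested, 0 were 2-fold higher and 8 were 2-fold lower (Ifng, Eomes, Gzma, Gzmb, Gzmk, Ccl4, Nkg7 and Prf1), with medians of -1.53 in MC38-Ova and -1.87 in B16-Ova. The rule left out cells with more than 1 Cd8a or Cd8b1 UMI, and members held 34.5 and 43.1 CPM of these genes in MC38-Ova and B16-Ova, against 1022 and 987 CPM in other cells, so the rule bears on this group. Ccl3 and Ccl4, chemokines of activated T cells, were at 26.7 and 122 CPM in MC38-Ova members against 472 and 2013 CPM (-4.15 and -4.04). In B16-Ova members Ccl3 and Ccl4 were at 23.2 and 94.5 CPM against 396 and 777 CPM (-4.09 and -3.04). Prf1, the pore-forming perforin, was at 10.98 against 132 CPM in MC38-Ova (-3.58) and 28.2 against 267 CPM in B16-Ova (-3.24). Gzmb, granzyme B, stayed abundant, at 530 CPM in MC38-Ova members against 2647 CPM (-2.32) and 295 CPM in B16-Ova members against 1202 CPM (-2.03). Tbx21, which encodes the type 1 factor T-bet, did not reach 2-fold (-0.48 and -0.60).

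The other genes with the lowest ratios were Gzmf (-4.50 and -6.28, on 1 UMI in each tumour), Gzma (-3.41 and -3.42), Gzmc (-3.32 and -3.58), Gzmk (-2.50 and -3.11) and Nrgn, a calmodulin-binding protein of neurons (-2.61 and -4.50, on 2 UMIs in each tumour). Serpine2, an inhibitor of serine proteases, had 0 UMIs in MC38-Ova members, which against a floor of 3 UMIs bounds the log2 ratio at -2.50, and a ratio of -5.02 in B16-Ova on 1 UMI. Spp1, osteopontin, had 1 UMI in MC38-Ova (-2.41) and 0 in B16-Ova members, bounded at -4.04. Against cells that met the rest of the rule with 0 Tmem176 UMIs, only Gzma (-2.30 and -1.93) and Gzmc (-2.93 and -2.23) of the 10 lowest genes were called lower. Gzmk (-0.27 and -1.61), Prf1 (-1.34 and -0.52), Ccl3 (-0.67 and -0.76) and Ccl4 were not called. Gzmf, Serpine2, Nrgn and Spp1 were under the mean level tested there. Granzyme genes are close copies of each other, so reads may be split between them.

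Checkpoint and costimulation genes were also lower: of 11 tested, 7 were 2-fold lower in both tumours (Pdcd1, Havcr2, Lag3, Tigit, Entpd1, Tnfrsf9 and Tnfrsf4) and 0 higher, with medians of -1.77 and -1.70. Pdcd1, which encodes PD-1, was at 56.5 CPM in MC38-Ova members against 234 CPM (-2.05) and at 74.6 CPM in B16-Ova members against 307 CPM (-2.04). Lag3 was at 26.7 against 337 CPM in MC38-Ova (-3.66) and 66.3 against 334 CPM in B16-Ova (-2.33). Ctla4 was lower by less (-1.08 and -0.68). Foxp3-positive and CD8 cells make up much of the other cells and both were left out by the rule.

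A narrower comparison set the cells against those that met every other condition, Il7r included, but had 0 Tmem176a plus Tmem176b UMIs, 1281 in MC38-Ova and 1082 in B16-Ova. Here 55 of 5387 genes were 2-fold higher in Tmem176+ Il7r+ cells in both tumours (1.02%) and 39 were 2-fold lower (0.724%). In this comparison 5 of 12 tested type 17 genes were higher (Il22, Aqp3, Sdc1, Ltb4r1 and Serpinb1a) and 0 lower. Il22, Aqp3 and Sdc1 were under 20 CPM in cells with Tmem176 at 0 in both tumours. They passed the 20 CPM mean through the members, so the count supports no direction of the list. Zbtb16 (2.77 in MC38-Ova and 3.48 in B16-Ova), Ramp1 (2.88 and 2.97), Pxdc1 (6.19 and 7.34), Lmo4 (3.94 and 3.93) and Actn2 (4.65 and 4.07) were higher than in these cells too. Of these genes Ramp1 was above 20 CPM in cells with Tmem176 at 0 (44.6 and 50.2 CPM). Zbtb16, Pxdc1, Lmo4 and Actn2 were under 20 CPM there in both tumours. They passed the mean through the members and could not have been called lower, so their calls support no direction. Of the 10 checkpoint genes tested 0 were 2-fold lower in both tumours, with Pdcd1 at -0.89 and -0.77. Type 1 and cytotoxic genes gave 5 lower (Eomes, Gzma, Ccl5, Nkg7 and Il12rb2) and 1 higher, Il12rb1, and Ccl4 was at -0.22 and -0.27. Innate-like genes gave 2 higher, Zbtb16, with the limit just given, and Ramp1, and 5 lower, Klrb1c, Fcer1g, Tyrobp, Xcl1 and Klrd1. Itgae, the integrin CD103, was among the higher genes of this comparison (1.65 and 2.02) but not of that with all other cells (0.57 and 0.95).

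IL-7 and common γ chain genes gave 0 of 11 in either direction against all other cells, with medians of 0.12 in MC38-Ova and 0.30 in B16-Ova, and Il2rg, the common γ chain, had ratios of -0.04 and 0.30. Tissue residency gave 0 of 6 and interferon genes 0 of 9. Proliferation gave 0 of 13, although its median was -0.24 in MC38-Ova and -1.61 in B16-Ova. Against cells with Tmem176 at 0 its medians were 0.69 and -0.04, over 10 tested genes. Type 2 genes gave 0 higher and 2 lower of 5, with medians of -1.65 in MC38-Ova and -0.35 in B16-Ova. The lower ones were the epidermal growth factor ligand Areg (-1.65 and -1.70) and Il10 (-1.99 and -1.04). Against cells with Tmem176 at 0 type 2 genes gave 0 lower and 1 higher, Ccr4, of 4 tested, with medians of -0.94 and 0.33. CD20-like family genes, the relatives of Tmem176a and Tmem176b, gave 0 of 3 tested in either direction.

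Among other cytokines and growth factors 3 of 9 were higher (the ligands Tnfsf11 and Tnfsf8 and the protease Furin) and 1, Penk, was lower, and Furin was not called with all 209 barcodes. Against cells with Tmem176 at 0 Furin alone was called, while Tnfsf11 had 0.88 and 1.20 and Tnfsf8 0.71 and 1.22. Tnfsf11, RANK ligand, was at 209 against 53.9 CPM in MC38-Ova (1.95) and 156 against 32.7 CPM in B16-Ova (2.25). Cd40lg, the CD40 ligand of helper T cells, which was in no list and was picked after its values were seen, was at 173 against 52.1 CPM in MC38-Ova (1.73) and 317 against 50.7 CPM in B16-Ova (2.64). It was seen in 46.2% of MC38-Ova and 70.7% of B16-Ova members. Coreceptor genes gave 1 lower of 9, the costimulator Cd27 (-1.63 and -2.06). Immediate early and heat shock genes gave 2 of 16 higher, Fosb (1.14 and 1.21) and Atf3 (2.32 and 1.91). Against cells with Tmem176 at 0 the list gave 0 of 16 higher, so neither gene reached 2-fold in both tumours there.

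Mgat5 links the RNA to the L-Pha tag. It was the 1 called gene of 8 tested for N-glycan branching, at 45.5 CPM in MC38-Ova members against 18.1 CPM (1.33, 0.75 to 1.86) and 48.1 CPM in B16-Ova members against 15.8 CPM (1.61, 1.02 to 2.14). Each of these rests on 29 UMIs in members, seen in 23 MC38-Ova and 21 B16-Ova cells. In the other cells of both tumours Mgat5 was under 20 CPM. It passed the 20 CPM mean through the members and could not have been called lower, so the count of 1 supports no direction. Against cells with Tmem176 at 0 the ratios were 0.53 and 0.64. Mgat1 (0.48, -0.17 to 1.06, and -0.57, -1.70 to 0.36) and Mgat2 (-0.33, -0.84 to 0.13, and -0.49, -1.05 to 0.03), the earlier branching enzymes, did not differ beyond counting error.

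The tags were not used by the rule. The L-Pha tag had a median of 369 UMIs in MC38-Ova members (lowest 131, highest 1677, interval of the median 327 to 398) against 385 UMIs in all other cells and 289 UMIs in cells with Tmem176 at 0. In B16-Ova the median was 353 UMIs in members (77 to 15017, interval 319 to 404), against 424 UMIs in all other cells and 246 UMIs in cells with Tmem176 at 0. L-Pha was thus above the Tmem176-negative cells of the same rule in both tumours, and below all other cells in B16-Ova. RNA depth moved the same way: 5053.5 RNA UMIs in MC38-Ova members against 6559 in other cells and 4320 in cells with Tmem176 at 0, and 5333 in B16-Ova members against 6374.5 and 4122. Per 1000 RNA UMIs, L-Pha was 67.3 in MC38-Ova members against 62.6 in other cells and 66.3 in cells with Tmem176 at 0. In B16-Ova it was 68.3 in members against 67.5 and 59.4. Scaled by the cell's own hashtag UMIs, the median of members over that of other cells was 1.22 in MC38-Ova and 1.11 in B16-Ova, so the direction against all other cells turned with the scale. The part of depth in the tag differences was not tested. With all 209 barcodes the L-Pha medians of members were 373 and 354 UMIs, against 390 and 427 in other cells.

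PD-1 and Tim-3 tags had low medians in members and in other cells, though single other cells held far more. The highest other cell had 16242 PD-1 UMIs in MC38-Ova and 622 in B16-Ova. For Tim-3 the highest other cell had 30466 and 22514 UMIs, against 41 and 106 in members. PD-1 had a median of 15 UMIs in MC38-Ova members (4 to 52) against 18 in other cells, and 14 UMIs in B16-Ova members (2 to 65) against 19 in other cells. Cells with Tmem176 at 0 had 16 in each tumour. Tim-3 had 18 UMIs in MC38-Ova members against 20, and 19 UMIs in B16-Ova members against 21. Per 1000 RNA UMIs the PD-1 medians were 2.73 in MC38-Ova members against 2.71 in other cells, and 2.43 in B16-Ova members against 2.75. The lower PD-1 tag in MC38-Ova thus did not hold per RNA UMI, and in B16-Ova the intervals of these medians overlapped (2.34 to 2.81 in members and 2.69 to 2.81 in other cells). Cells with Tmem176 at 0 had 3.53 PD-1 UMIs per 1000 RNA UMIs in MC38-Ova (3.40 to 3.68, against 2.29 to 3.46 in members) and 3.72 in B16-Ova (3.55 to 3.91), so that members lay below them in B16-Ova.

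**Figure D3:**
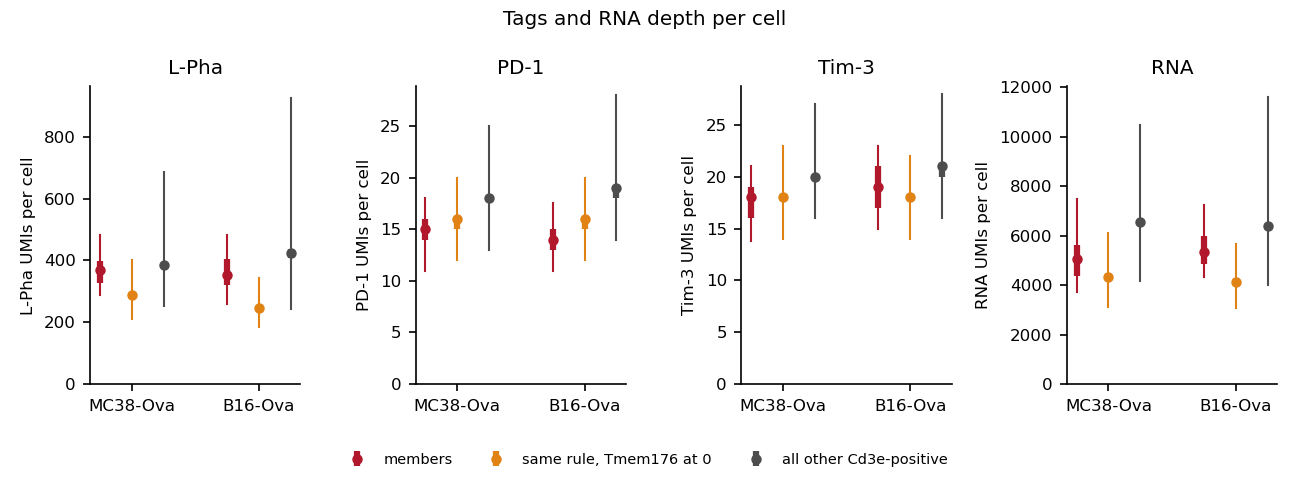
Median tag and RNA UMIs per cell (points), 95% counting interval of the median (thick lines) and quartiles (thin lines) for Tmem176+ Il7r+ T cells (members, red), cells of the same rule with Tmem176 at 0 (orange) and all other Cd3e-positive cells (grey) in MC38-Ova and B16-Ova, mixed barcodes left out. L-Pha and RNA of members lie above those of cells with Tmem176 at 0 in both tumours.

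Antigen receptor transcripts were mostly those of αβ T cells. Trac, the α chain constant region, was seen in 56.7% of MC38-Ova and 74.7% of B16-Ova members, against 71.4% and 73.2% of other cells, and its log2 ratios were -0.48 and 0.14. Trdc, the δ chain constant region, was seen in 1 MC38-Ova and 1 B16-Ova member. Tcrg-C1, a γ chain constant region, was the 1 of 4 tested constant region genes that was called, at 56.5 CPM in MC38-Ova members against 2.78 CPM (4.34, 3.78 to 4.87) and 39.8 CPM in B16-Ova members against 2.32 CPM (4.10, 3.41 to 4.73). It was seen in 20.2% of MC38-Ova and 15.2% of B16-Ova members, against 1.89% and 1.59% of other cells. Tcrg-C1 too was under 20 CPM in the other cells and passed the mean through the members, so it could not have been called lower. The γ chain constant regions resemble each other, so reads may be split between them, and Tcrg-C2 did not show one direction (1.29 and -0.24). Tcrg-V4 was seen in 6.73% of MC38-Ova and 11.1% of B16-Ova members, against 2.10% and 1.98% of other cells.

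Variable segments bear on the invariant classes. Trav1, the α segment of mouse MAIT cells, was seen in 8.65% of MC38-Ova members (9 of 104, exact interval 4.03 to 15.8%) and 5.05% of B16-Ova members (5 of 99, 1.66 to 11.4%), against 1.69% and 2.43% of other cells. The B16-Ova interval included the share in other cells. Trbv13-3 was seen in 19.2% of MC38-Ova and 17.2% of B16-Ova members against 9.26% and 10.4% of other cells, and Trbv13-2 in 37.5% and 42.4% against 29.7% and 32.1%. The share in other cells lay within the members' interval for Trbv13-3 in B16-Ova (10.3 to 26.1%) and for Trbv13-2 in MC38-Ova (28.2 to 47.5%). Trbv19, also used by MAIT cells, did not differ beyond counting error (15.4% and 10.1% against 13.9% and 14.8%). Trav11, the α segment of invariant NKT cells, was seen in 2 MC38-Ova and 0 B16-Ova members, where 0 of 99 allows a share of cells with a UMI of up to 3.03%, which is no limit on cells that use the segment. Trdv4 gave 33 UMIs in 3 MC38-Ova members. Joining segments gave 0 UMIs in members for all of the 60 Traj and 14 Trbj genes, so Traj18 and Traj33, which define the invariant chains, could not be read from this matrix. Segments near each other in sequence may share reads.

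Cd4 was seen in 39.4% of MC38-Ova and 41.4% of B16-Ova members, close to the 35.6% and 40.3% of other cells, of which Foxp3-positive cells are a part. Cells with Tmem176 at 0 had 34.8% and 39.6%. Tmem176+ Il7r+ T cells thus held cells with and without a Cd4 UMI. Zbtb16 was seen in 34.7% of the 121 cells with Cd4 at 0 and in 8.54% of the 82 with a Cd4 UMI, so most cells without a Cd4 UMI had no Zbtb16 UMI either.

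Of the 203 cells, 49 had a Zbtb16 UMI, 26 in MC38-Ova and 23 in B16-Ova, and 154 had none. Cd4 was seen in 15.4% of MC38-Ova and 13.0% of B16-Ova Zbtb16-positive cells, against 47.4% and 50% of Zbtb16-negative cells. Over both tumours Ramp1 was seen in 93.9% of Zbtb16-positive against 50% of Zbtb16-negative cells, Lmo4 in 79.6% against 31.8%, Pxdc1 in 77.6% against 26.0% and Actn2 in 75.5% against 36.4%. For each of these genes the difference had the same direction in both tumours. Of the type 17 receptors, Il23r was seen in 38.8% against 7.14%, Il1r1 in 26.5% against 6.49% and Ccr6 in 26.5% against 9.09%. Il17re did not differ beyond counting error, at 28.6% (16.6 to 43.3%) against 16.9% (11.3 to 23.8%). Tcrg-C1 was seen in 42.9% against 9.74%. Trav1 was seen in 16.3% (7.32 to 29.7%) against 3.90% (1.44 to 8.29%), with overlapping intervals. Il17a went the other way, in 0 of 49 Zbtb16-positive cells, which allows a share of cells with a UMI of up to 6.12%, against 5.19% (8 of 154) of Zbtb16-negative cells, a difference not detectable at this depth.

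Depth differed between these cells, with medians of 6115 RNA UMIs in Zbtb16-positive and 5002.5 in Zbtb16-negative cells, and a deeper cell is more likely to show any gene. With each cell thinned to 2000 UMIs the shares were 75% against 31.8% for Ramp1, 54.2% against 17.5% for Lmo4, 52.1% against 13.0% for Pxdc1, 12.5% against 3.25% for Il23r and 12.5% against 28.6% for Cd4. Thinned Actn2 was at 31.25% (18.7 to 46.3%) against 21.4% (15.2 to 28.8%), with overlapping intervals, and Il17re at 8.33% against 6.49%. The thinned intervals of Il23r and Cd4 also overlapped. So did those of Tcrg-C1 (12.5% against 4.55%), Trav1 (8.33% against 1.30%), Il1r1 (10.4% against 1.30%) and Ccr6 (14.6% against 3.25%). Of the 203 cells, 34 had both Zbtb16 and any of the 7 type 17 genes, 15 had Zbtb16 only, 57 had a type 17 gene only and 97 had neither. The 97 cells with neither show that the rule also took cells in which no transcript of these genes or of Zbtb16 was seen. The L-Pha median was 409 UMIs in MC38-Ova and 452 UMIs in B16-Ova Zbtb16-positive cells, against 334 and 325 UMIs in Zbtb16-negative cells. RNA depth differed in the same direction, 5690.5 and 6217 against 4692.5 and 5099 UMIs, and its part in the L-Pha difference was not tested. PD-1 had 16 and 15 UMIs in Zbtb16-positive against 15 and 14 UMIs in Zbtb16-negative cells.

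**Figure D4:**
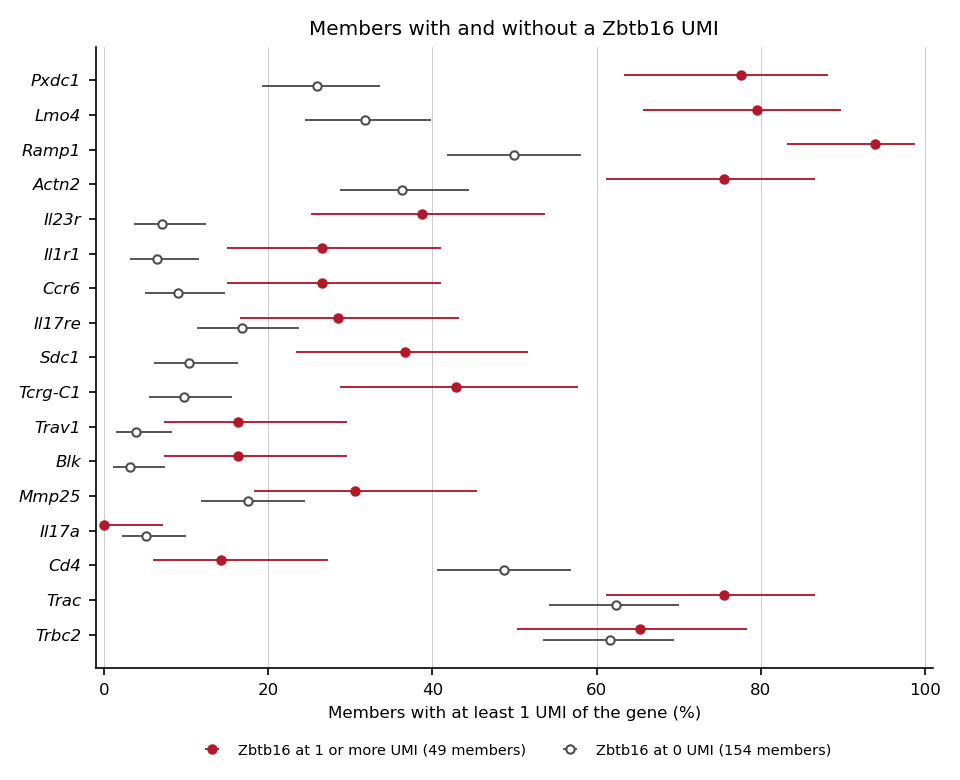
Percent of Tmem176+ Il7r+ T cells of both tumours with at least 1 UMI of each gene, for the 49 cells with a Zbtb16 UMI (filled red) and the 154 without (open grey), with exact 95% intervals. Pxdc1, Lmo4, Ramp1 and Il23r lie higher in Zbtb16-positive cells, Cd4 lies lower, and Trac and Trbc2 overlap.

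The threshold of 3 Tmem176 UMIs cut through a gradient. Among cells that met the rest of the rule in MC38-Ova, Ramp1 stood at 44.6, 72.2, 91.8, 140.5, 210.2 and 637 CPM with 0, 1, 2, 3, 4 to 9 and 10 or more Tmem176 UMIs, and in B16-Ova at 50.2, 68.4, 207, 148, 309 and 654 CPM. Pxdc1 stood at 2.68, 35.0, 17.2, 74.0, 158 and 339 CPM in MC38-Ova and at 1.38, 12.2, 27.6, 61.5, 148 and 433 CPM in B16-Ova. Cells just inside the rule, with 3 UMIs, numbered 23 in MC38-Ova and 14 in B16-Ova, and cells just outside, with 2, numbered 28 and 25. Just inside, Zbtb16 had 3 and 1 UMIs, in 4.35% of the MC38-Ova and 7.14% of the B16-Ova cells. Just outside it had 11 and 5 UMIs, in 7.14% and 8% of the cells. These shares rest on very few cells, so they do not show whether the threshold parted Zbtb16-positive from Zbtb16-negative cells. Among cells with 10 or more Tmem176 UMIs, 48.3% in MC38-Ova and 51.9% in B16-Ova had a Zbtb16 UMI, and their median depth of 6115 and 6217 RNA UMIs was also above the 4320 and 4122 of cells with 0. Cd4 showed no such climb, at 116 and 86.5 CPM with 10 or more Tmem176 UMIs and 166 and 174 CPM with 0.

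**Figure D5:**
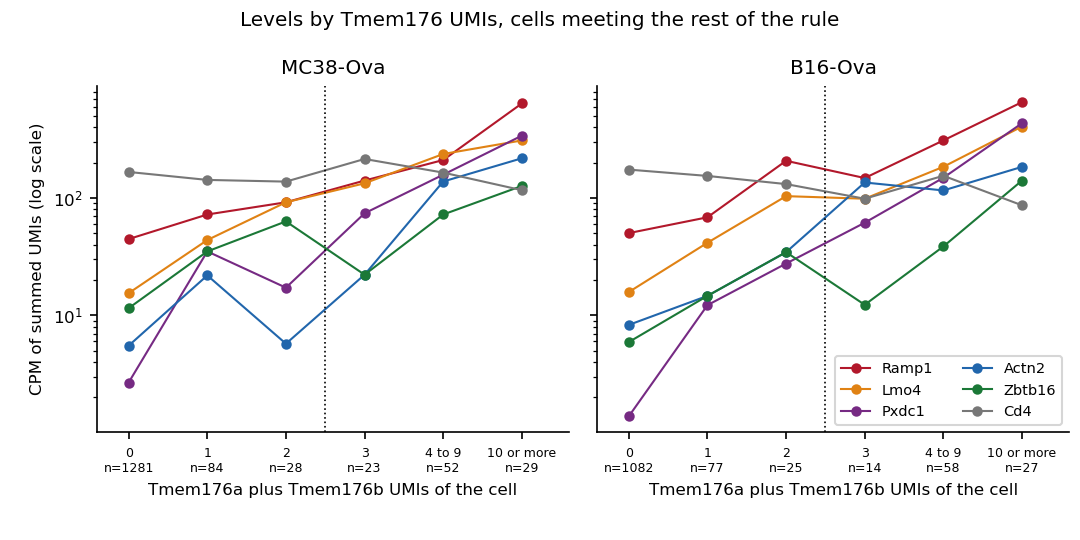
CPM of summed UMIs (log axis) of 6 genes by the number of Tmem176a plus Tmem176b UMIs in the cell, among cells that met the rest of the rule, MC38-Ova left and B16-Ova right, with the number of cells under each point and the rule's threshold as a dotted line. Ramp1, Lmo4, Pxdc1, Actn2 and Zbtb16 are highest at 10 or more UMIs in both tumours, and Cd4 is not.

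Between the tumours, 1760 genes had at least 100 UMIs in the members of both together, and 12 (0.682%) were 2-fold or more higher in MC38-Ova and 8 (0.455%) 2-fold or more lower. With all 209 barcodes the counts were 45 (2.09%) and 24 (1.11%) of 2155, and their extremes (Clec3b, Dcn, Ccl2 and Col3a1 higher, Cck, Mgll and Ptgds lower in MC38-Ova) had over 50% of their UMIs in 1 cell in the tumour where they were high. Ltb4r1 was 246 CPM in MC38-Ova members and 82.9 CPM in B16-Ova members (log2 ratio 1.57, 1.10 to 2.06), and in other cells the same ratio was 1.63. Fabp5, a fatty acid-binding protein, was at 199 CPM and 44.8 CPM (2.15), but 44.9% of its MC38-Ova UMIs came from 1 cell. Atf3, a stress-induced transcription factor (1.43 in members, 1.02 in others), and Oasl2, an interferon-induced gene (1.16 and 1.33), were higher in MC38-Ova in both kinds of cells. Fgl2, a fibrinogen-like protein, had a ratio of 1.28 in members and -0.58 in others. Gyg, glycogenin (1.18), Txnrd1, thioredoxin reductase (1.14), and Ccr7 (1.12, with 42.6% of MC38-Ova UMIs in 1 cell) completed the named higher genes.

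On the lower side Il22 (-6.75) rests on the 4 B16-Ova cells given above. Hspa1a and Hspa1b, near-identical copies of the heat-shock protein HSP70 whose reads may be split, were at 20.4 and 7.84 CPM in MC38-Ova members and 355 and 191 CPM in B16-Ova members (-4.12 and -4.60). In other cells both were also lower in MC38-Ova (-2.67 and -2.47), and in B16-Ova members 1 cell held 36.4% and 46.1% of their UMIs. Sit1, an adaptor of T cell receptor signalling (-1.46 in members, -0.07 in others), Tnf (-1.14 and 0.69), Zfp36, which promotes mRNA decay (-1.08 and 0.03), and Dusp2, a phosphatase of MAP kinases (-1.06 and -0.32), were lower in MC38-Ova members, while in other cells Tnf was higher in MC38-Ova and Sit1 and Zfp36 were near 0. These differences between members and other cells were not tested. Sdhaf1, an assembly factor of succinate dehydrogenase, had -1.51 in members and -0.99 in others.

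Other cell types were sparsely represented in the 203 cells. Summed macrophage markers stood at 28.2 CPM in MC38-Ova and 24.9 CPM in B16-Ova members, against 36.2 and 28.1 CPM in other cells, with Csf1r, Adgre1 and Lyz2 at 0, the last by rule. Melanoma markers stood at 20.4 and 31.5 CPM against 19.3 and 19.5 CPM, and fibroblast markers at 7.84 and 4.97 CPM against 5.64 and 5.39 CPM. Neutrophil and mast cell markers had 0 UMIs. Natural killer markers stood at 50.2 and 11.6 CPM against 77.2 and 83.1 CPM. Markers of γδ T cells stood at 143 and 74.6 CPM against 22.1 and 20.0 CPM, with Trdc at 1 UMI in each tumour, in cells that had been sorted for TCRβ. Dendritic cell markers stood at 212 and 123 CPM against 200 and 293 CPM, with Itgax at 0 in both tumours. These low levels follow in part from leaving out the mixed barcodes and, for Lyz2, from the rule. With all 209 barcodes, macrophage markers stood at 143 CPM in MC38-Ova and 281 CPM in B16-Ova members, against 133 and 99.3 CPM in other cells, fibroblast markers at 1336 and 192 CPM against 79.0 and 11.3 CPM, and melanoma markers at 1048 and 3334 CPM against 64.8 and 157 CPM. In mice macrophages also carry Tmem176a and Tmem176b, and the part of RNA from such cells in the Tmem176 UMIs was not tested.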

How the data were processed

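T cells of MC38-Ova and B16-Ova tumours were read in 1 capture, as RNA and as 5 antibody tags (3 surface tags and 2 hashtags). The authors deposited whole-number UMI counts per gene or tag and barcode, made with Cell Ranger 3.1.0 on mm10, per the submitters' processing notes, which also name R 3.6.1 and Seurat 3.1.0 (matrix header software 3.0.2). Aligner settings, strand setting and annotation release are not given in the sources used here. Receptor sequences from the TCR library were not analysed here. The matrix held 31053 genes and 19912 barcodes.

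A barcode passed (18429 did) where it showed 500 or more genes and its mitochondrial share did not exceed 10%. A barcode was called for a tumour where its larger hashtag had at least 150 UMIs and 3 times the other, which left 8407 MC38-Ova and 6585 B16-Ova cells. Median RNA depth was 5112 UMIs in MC38-Ova and 5338 UMIs in B16-Ova members, against 6644 and 6398 UMIs in other Cd3e-positive cells. Both-hashtag barcodes (2388) were left out as doublets. Leaving out in addition the cells with the highest Scrublet scores (1524 in MC38-Ova, 935 in B16-Ova) was an alternative.

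UMIs were summed over cells and given as CPM. A gene was called where it was 2-fold or more apart in the same direction in both tumours, among genes with a mean of at least 20 CPM over the 4 sums, rule genes left out. No test was run, since neither tumour had more than 1 pool. Ratios have exact conditional Poisson intervals, shares Clopper-Pearson intervals and medians order-statistic intervals, all at 95% and for counting error only, and the upper limit of a count of 0 is 3 counts of the total. Shares were also read after thinning each cell to 2000 UMIs, which left out 1 MC38-Ova and 0 B16-Ova members and 506 and 433 other cells.

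Named genes were the 20 highest and 10 lowest called genes, ranked by the tumour nearer to 0, and the 8 highest and 8 lowest between tumours, with receptor segments described apart. The members and gene lists were chosen with earlier results of these data known. Python 3.11.15, numpy 2.4.6, scipy 1.17.1, pandas 2.3.3, scanpy 1.11.5 and matplotlib 3.10.9 were used, and edgeR 4.0.16 in R 4.3.3 only for the TMM factors of one alternative. The scripts were tested on simulated data.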

Additional observations from a re-analysis of the deposited data

Results flagged for a closer look

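Only the tested genes of the gene lists were searched for log2 ratios of members over other Cd3e-positive cells with opposite signs in the tumours. Without the mixed barcodes, 5 of them had such ratios, with counting intervals that excluded 0 in each tumour. The share over all 5404 tested genes was not taken, so the count of 5 cannot be judged against it. The difference between the tumours was not tested, since each tumour was 1 pool. S100a6, a calcium-binding protein, had -0.33 in MC38-Ova and 0.15 in B16-Ova. Isg15, an interferon-induced ubiquitin-like protein, had -0.38 in MC38-Ova and 0.38 in B16-Ova. Ccr7, the lymph node homing chemokine receptor, had 0.74 in MC38-Ova and -0.81 in B16-Ova, and 42.6% of its MC38-Ova UMIs lay in 1 cell. Egr1, an immediate early transcription factor, had -0.50 in MC38-Ova and 0.43 in B16-Ova. Ms4a4c, a relative of CD20, had -0.96 in MC38-Ova and 0.80 in B16-Ova.

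Barcodes without a hashtag call, which enter no comparison, also held cells that met the RNA rule. They were 61 of 3437, or 1.77% (exact interval 1.36 to 2.27%), and this share was set against no control. Their summed levels were 66.1 CPM of Zbtb16, 324 CPM of Ramp1 and 134 CPM of Pxdc1, against 5.54, 44.1 and 6.88 CPM in all 3437 barcodes. Both hashtags were at or above the minimum in 39 of the 61, and their median of 9319 RNA UMIs was above the 7192 UMIs of the 61.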

How the results depend on the processing

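The share of Cd3e-positive cells, 1.36% in MC38-Ova and 1.63% in B16-Ova, was 1.72% and 2.03% with at least 2 Tmem176 UMIs, 0.864% and 1.11% with at least 5, and 0.631% and 0.747% when the rule was applied after thinning to 2000 UMIs, since each of these changes how many UMIs a cell must or can show. The count of 135 higher genes over all 209 barcodes was 56 with a floor of 50 CPM, 954 with no floor beyond 1 UMI, 78 with the mean of per-cell CPM and 73 without the mixed barcodes. The count of 71 lower genes was 45 with a floor of 50 CPM and 213 with no floor. Without the mixed barcodes the melanoma genes Tyrp1 and Pmel, named among the 20 highest with all 209, had MC38-Ova log2 ratios of -0.54 and -1.67, so their direction was set by those barcodes. Between tumours the counts of 45 and 24 genes were 17 and 13 with at least 200 UMIs, and 12 and 8 without the mixed barcodes.

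Median tag UMIs of members over other cells were 0.956 (L-Pha), 0.833 (PD-1) and 0.900 (Tim-3) in MC38-Ova and 0.829, 0.737 and 0.905 in B16-Ova, in that order of tags. Per 1000 RNA UMIs PD-1 and Tim-3 were 1.00484 and 1.05 in MC38-Ova and 0.889 and 1.07 in B16-Ova. Per 100 own-hashtag UMIs the 3 tags were 1.22, 1.11 and 1.09 in MC38-Ova and 1.11, 0.988 and 1.10 in B16-Ova. Against cells with Tmem176 at 0 they were 1.29, 0.9375 and 1 in MC38-Ova, and L-Pha and Tim-3 were 1.44 and 1.06 in B16-Ova. With other cells weighted to the members' RNA deciles, L-Pha in MC38-Ova was 1.12. The cause was not tested. The direction of the tag differences therefore depended on the scale and on the cells set against the members.

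Of the 88 ratios of 44 named genes, 67 moved beyond counting error against cells with Tmem176 at 0, 39 with per-cell CPM, 19 with a hashtag ratio of 5 and 0 under TMM scaling. The other alternatives did not give every ratio: 30 moved and 56 did not with at least 5 Tmem176 UMIs, 13 moved and 74 did not without the highest Scrublet scores, and 18 moved, 2 reversed and 55 did neither without the mixed barcodes. No paired analysis was possible because each tumour was 1 pool with no replicate number. Depth limits the rare type 17 cytokines, which rest on 10 or fewer UMIs per tumour for Il17a and Il17f.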
